A study of Homo sapiens with 4 samples.

Results

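Histone genes are described here in TPC1 cells, an established human papillary thyroid cancer line, with and without overexpression of C1orf106 (the older symbol of INAVA). The members were picked out by gene symbol, as the clustered genes named HIST1, HIST2, HIST3 or HIST4 and the variant genes named H1F, H2AF or H3F. The deposited table listed 48 such genes among 13165, of which 37 were clustered (32 HIST1 on chromosome 6 and 5 HIST2 on chromosome 1) and 11 were variants. There were 0 HIST3 and 0 HIST4 genes in it. GENCODE release 29 has 71 protein-coding clustered genes, 36 of which were listed. The listed share was lowest for H1, with 2 of 6, and H4, with 5 of 15. HIST2H2BC was listed besides, as a pseudogene. TPC1-Vector cells carried the empty vector and TPC1-C1orf106 cells the vector expressing C1orf106. Both were stable lines obtained by selection with 0.5 μg/mL puromycin for 2 weeks, and RNA was sequenced from 2 libraries of each. The methods describe retroviral delivery from pQCXIP, whereas the labels speak of transfection, and neither says whether a line grew from 1 clone.

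Nucleosomes hold DNA wrapped around an octamer of the core histones H2A, H2B, H3 and H4, and linker histone H1 binds where the DNA enters and leaves. Clustered histone genes are mostly replication-dependent: they lack introns, are transcribed mainly in S phase, and their mRNA ends in a conserved stem-loop in place of a poly(A) tail. Variant genes such as H2AFZ and H3F3B are expressed through the cell cycle and give polyadenylated mRNA. Some clustered genes can also yield a longer, polyadenylated transcript that reads past the stem-loop.

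For every gene the table gave 1 FPKM value per group (fragments per kilobase of transcript and of sequencing depth), and values of single libraries were not analysed here. The values therefore have no SD, n or replicate check, the depth per library is unknown, and no test of the difference between the groups could be made. "Higher" and "lower" describe these 2 values only, and paired values are given with TPC1-Vector first. The ratio is FPKM in TPC1-C1orf106 over FPKM in TPC1-Vector, and the log2 ratio was taken after adding 0.5 to each value, which shrinks the difference of weak genes. A gene was counted as different when the log2 ratio reached 1.5-fold in either direction (0.58) at a mean of at least 0.5 FPKM, a filter that 12305 genes passed. The 2 lines were selected separately, so an effect of C1orf106 and a difference between the lines cannot be told apart. C1orf106 itself was at 7.96 FPKM with the empty vector and at 123 FPKM with overexpression. Of thyroid genes, PAX8 and FOXE1 were listed (60.1 and 5.26 FPKM in TPC1-Vector), whereas TG, TSHR, SLC5A5 and NKX2-1 had no row in the table used here. Of 4 leukocyte, 3 endothelial and 2 erythroid markers, CD14 (0.295 and 0.236 FPKM) and HBB (0.645 and 1.20 FPKM) were listed.

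The stem-loop that marks replication-dependent histone mRNA was sought in transcripts of GENCODE release 29. The pattern was GGNNNNTTNNNNNNCC, read on the transcript strand, with the first 6 bases able to pair with the last 6 (G-T pairs allowed), within 100 bases after the stop codon. It was found in 18 of the 22 clustered genes whose annotation reached at least 40 bases past the stop codon, beginning at base 24 to 57 after it. HIST1H3E and HIST1H2BJ had no match, with at most 1908 and 569 annotated bases past the stop codon over their coding transcripts. HIST1H4C and HIST1H1E, also without a match, had 51 and 57 such bases, too few to hold the element at the farthest of the positions with a match. Among coding genes outside the histone prefixes, 16 of 18221 (0.0878%) held it. H2AFX was the 1 variant gene of 10 with a match. The runs are from 5 of the 6 genes with a match among the 10 clustered genes at least 1.5-fold higher in TPC1-C1orf106, to show the element, and from H2AFX for comparison, with the stem-loop in capitals:
HIST1H2BC: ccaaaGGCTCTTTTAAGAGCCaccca
HIST1H2BG: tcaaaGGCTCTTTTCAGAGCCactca
HIST1H2AC: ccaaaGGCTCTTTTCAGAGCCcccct
HIST1H4H: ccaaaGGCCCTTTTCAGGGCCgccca
HIST2H2BE: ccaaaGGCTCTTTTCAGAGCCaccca
H2AFX: acaaaGGCCCTTTTAAGGGCCaccac
Among the 19 genes with a match, 1 stem was shared by 14 genes, which included the 4 H2A and H2B genes shown. Another stem was shared by H2AFX, HIST1H4B, HIST1H4E and HIST1H4H, so the 1 variant with a stem-loop had that of the H4 genes. The loop took 2 forms, and HIST1H2BC and H2AFX held the less common one. Of the other 4 genes at least 1.5-fold higher, HIST1H2BJ had no match in its 3 coding transcripts, which have up to 2 exons and up to 569 annotated bases past the stop codon. With spliced forms among them, the sequence beside the usual stop codon may not have been searched, so a stem-loop is not excluded. For HIST1H2BK, HIST1H3D and HIST1H4K, GENCODE release 29 annotates no base past the stop codon, so they could not be searched.

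Promoters carried further shared elements. RefSeq windows on GRCh38.p14 were matched for 43 of the 48 members, 34 of them clustered, and the 250 bases before the start site were searched on both strands for the letters TATAAA (the TATA box), for the CCAAT box and for the octamer ATTTGCAT, which is bound by POU2F1 (Oct-1) and is typical of H2B promoters. The octamer was present in 8 of 11 clustered H2B promoters (72.7%) and 7 of 9 clustered H2A promoters (77.8%), 4 of which stand head to head with one of these H2B genes. It was present in 1 of 8 clustered H3 promoters, 0 of 4 clustered H4 promoters and 1.63% of all 35097 promoters. CCAAT was found in 30 of 34 clustered promoters (88.2%) and TATAAA in 21 (61.8%), against 32.0% and 10.7% of all promoters. All 4 clustered H4 promoters lacked CCAAT. The runs are those of the 5 H2B genes with the largest log2 ratios, and of HIST1H2BL, which was lower. Capitals mark the 3 elements on either strand, and each run ends at the base before the start site.
HIST1H2BC (chr6:26123927-26124176, reverse strand): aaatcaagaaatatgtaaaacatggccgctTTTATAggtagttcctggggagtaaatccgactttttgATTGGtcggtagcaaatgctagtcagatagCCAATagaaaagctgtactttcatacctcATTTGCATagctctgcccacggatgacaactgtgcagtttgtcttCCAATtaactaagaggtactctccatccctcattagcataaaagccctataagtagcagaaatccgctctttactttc
HIST1H2BG (chr6:26216689-26216938, reverse strand): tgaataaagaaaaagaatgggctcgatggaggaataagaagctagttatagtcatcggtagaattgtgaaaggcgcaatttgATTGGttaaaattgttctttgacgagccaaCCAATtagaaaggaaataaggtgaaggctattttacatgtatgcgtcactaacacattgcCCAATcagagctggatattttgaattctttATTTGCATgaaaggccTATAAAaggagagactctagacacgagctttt
HIST1H2BJ (chr6:27132796-27133045, reverse strand): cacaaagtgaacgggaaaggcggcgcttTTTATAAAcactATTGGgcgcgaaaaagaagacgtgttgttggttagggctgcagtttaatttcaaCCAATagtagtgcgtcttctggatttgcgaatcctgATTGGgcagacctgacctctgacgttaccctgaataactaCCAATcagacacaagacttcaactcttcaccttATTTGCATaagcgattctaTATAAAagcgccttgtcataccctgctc
HIST1H2BK (chr6:27146859-27147108, reverse strand): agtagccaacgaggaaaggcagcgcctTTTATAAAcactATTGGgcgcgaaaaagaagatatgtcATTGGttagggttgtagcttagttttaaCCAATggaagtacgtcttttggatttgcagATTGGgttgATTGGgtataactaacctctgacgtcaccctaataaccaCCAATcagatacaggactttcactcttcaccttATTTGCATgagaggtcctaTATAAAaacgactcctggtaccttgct
HIST2H2BE (chr1:149886683-149886932, reverse strand): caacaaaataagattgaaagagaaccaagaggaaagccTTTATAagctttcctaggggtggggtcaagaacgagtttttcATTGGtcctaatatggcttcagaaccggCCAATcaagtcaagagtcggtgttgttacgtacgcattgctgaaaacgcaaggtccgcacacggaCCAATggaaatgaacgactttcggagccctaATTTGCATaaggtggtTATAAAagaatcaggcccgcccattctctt
HIST1H2BL (chr6:27807930-27808179, reverse strand): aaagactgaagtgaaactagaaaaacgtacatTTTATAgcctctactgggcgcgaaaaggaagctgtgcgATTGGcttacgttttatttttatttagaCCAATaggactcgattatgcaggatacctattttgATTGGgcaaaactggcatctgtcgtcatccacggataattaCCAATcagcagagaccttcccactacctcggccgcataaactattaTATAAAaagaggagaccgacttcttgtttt
In HIST1H2BG, HIST1H2BJ, HIST1H2BK and HIST2H2BE the octamer began 46 to 48 bases before the start site, followed by TATAAA. In HIST1H2BH and HIST2H2BF, which were not 1.5-fold higher, TATAAA was absent and the octamer began 49 bases before the start site. In HIST1H2BC it lay farther away, at 123 bases, and HIST1H2BL had a TATA box and a CCAAT box but not these 8 letters.

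More clustered genes were higher than lower in TPC1-C1orf106. H2B genes were the most numerous among those past the 1.5-fold line, while the variant genes were nearly level. Of all 37 clustered genes, 23 were higher and 14 lower, with a median log2 ratio of 0.21 against 0.0038 over all 13165 genes. Of all 13165 genes, 6708 were higher and 6457 lower. Of the 21 clustered genes at 1 FPKM or more in either group, 17 were higher and 4 lower. Of the 16 under 1 FPKM in both groups, 6 were higher and 10 lower. The FPKM values of all 37 added up to 100.2 in TPC1-Vector and 144 in TPC1-C1orf106, a ratio of 1.44. Most of this difference came from HIST1H2BK (15.96 and 33.6 FPKM), HIST1H2AC (15.7 and 25.1 FPKM) and HIST1H2BC (3.01 and 8.36 FPKM). HIST1H2BK also enters the sums given below for H2B, for the second HIST1 block and for genes long by deposited position. These sums are therefore not separate observations. Of the clustered genes, 27 passed the filter, 10 of them at least 1.5-fold higher and 1 lower. Over all genes tested, 2.24% were higher and 1.45% lower by that rule. Weak genes vary more, so the same rule was read among genes with a mean under 5 FPKM: 4.43% were higher and 2.47% lower, and of 21 clustered genes in this range 7 were higher and 1 was lower. HIST1H4K, at a mean of 0.506 FPKM, passed the filter only through its value in TPC1-C1orf106. The 10 clustered genes left out by the filter lay between 0.145 and 0.570 FPKM. Clustered histone genes are near-identical in coding sequence, so the division of fragments between copies is uncertain for each of them.

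**Figure D1:**
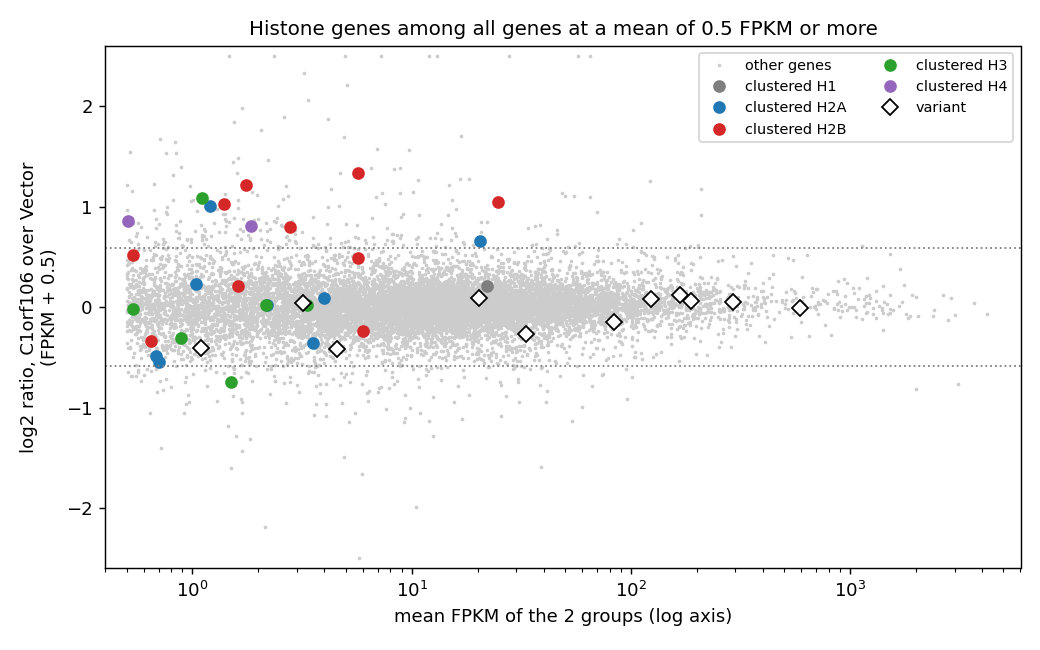
Log2 ratio (TPC1-C1orf106 over TPC1-Vector, 0.5 FPKM added) against the mean FPKM of the groups (log axis) for genes at a mean of 0.5 FPKM or more; grey dots are other genes, with 11 beyond 2.5 in either direction set at the edge, 1 of them past the right limit, coloured circles are clustered histone genes by type, and diamonds are variants. Dotted lines mark 1.5-fold, and H2B genes make up 5 of the 10 clustered genes above the upper line, while all 11 variants lie between the lines.

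H2B, which pairs with H2A in the nucleosome, had the largest number of genes past the 1.5-fold line, and also the most genes listed. Of those that passed the filter, 5 of 10 H2B genes were at least 1.5-fold higher. The same held for 2 of 8 H2A, 1 of 6 H3, 2 of 2 H4 and 0 of 1 H1 genes, the H4 genes being weak. Of 12 listed clustered H2B genes, 8 were higher and 4 lower, and their summed level was 37.0 FPKM with the vector and 66.0 FPKM with C1orf106. The most abundant was HIST1H2BK (chromosome 6, 27138293 to 27146858), at 15.96 and 33.6 FPKM, a ratio of 2.11. HIST1H2BC (26123467 to 26123904) was at 3.01 and 8.36 FPKM, a log2 ratio of 1.34. HIST1H2BG (26216201 to 26216644) was at 0.857 and 2.66 FPKM, a ratio of 3.10 from a low base. HIST1H2BJ (27132316 to 27132796) was at 1.91 and 3.68 FPKM, and HIST2H2BE (chromosome 1, 149884460 to 149886682) at 0.747 and 2.03 FPKM. These 5 genes were the H2B genes past the 1.5-fold line, and all 5 held the octamer.

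The other H2B genes did not pass that line. HIST1H2BD, which also yields a long polyadenylated form, was at 4.66 and 6.72 FPKM, a log2 ratio of 0.49. HIST1H2BH was at 1.47 and 1.77 FPKM. The pseudogene HIST2H2BC was at 6.56 and 5.50 FPKM. HIST1H2BN (0.348 and 0.718 FPKM), HIST1H2BL (0.781 and 0.511 FPKM), HIST1H2BF (0.431 and 0.145 FPKM) and HIST2H2BF (0.321 and 0.301 FPKM) were under 1 FPKM in both groups. HIST1H2BF and HIST2H2BF also held the octamer and were lower, but neither passed the filter and HIST2H2BF was nearly level. HIST1H2BD and HIST1H2BN lacked it and were higher. Of the H2B genes that passed the filter, 6 held the octamer, 5 of them past the line, with a median log2 ratio of 1.04. The 3 without it had a median of 0.49 and 0 past the line. Over all clustered genes with a promoter window that passed the filter, 7 of 14 with the octamer were at least 1.5-fold higher, with a median of 0.44. Without it 3 of 12 were, with a median of 0.12. Of the 7 H2A genes with it, HIST1H2AJ, HIST1H2AL and HIST1H2AM were lower. HIST1H2AC, HIST1H2AE, HIST1H2AG and HIST2H2AC were higher. HIST1H2AI lacked it and was past the line. Whether the octamer bears on these values was not tested. HIST1H2BC, HIST1H2BF and HIST1H2BG encode the same protein, yet the first and last were higher and HIST1H2BF was lower.

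H2A genes went both ways. Of 10 listed, 6 were higher and 4 lower, and their sum was 29.7 and 39.1 FPKM. HIST1H2AC (chromosome 6, 26124145 to 26124690) supplied most of it, at 15.7 and 25.1 FPKM, a log2 ratio of 0.66. HIST1H2AI was at 0.634 and 1.77 FPKM, a log2 ratio of 1.004. Both passed the 1.5-fold line. HIST1H2AG was nearly level at 3.83 and 4.10 FPKM, as was HIST2H2AC at 2.18 and 2.21 FPKM, and HIST1H2AE was at 0.921 and 1.16 FPKM. HIST1H2AM was lower, at 4.04 and 3.03 FPKM. Of the 4 genes under 1 FPKM, HIST1H2AH was higher (0.236 and 0.527 FPKM), and HIST1H2AJ (0.934 and 0.479 FPKM), HIST1H2AL (0.882 and 0.486 FPKM) and HIST1H2AK (0.330 and 0.197 FPKM) were lower.

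**Figure D2:**
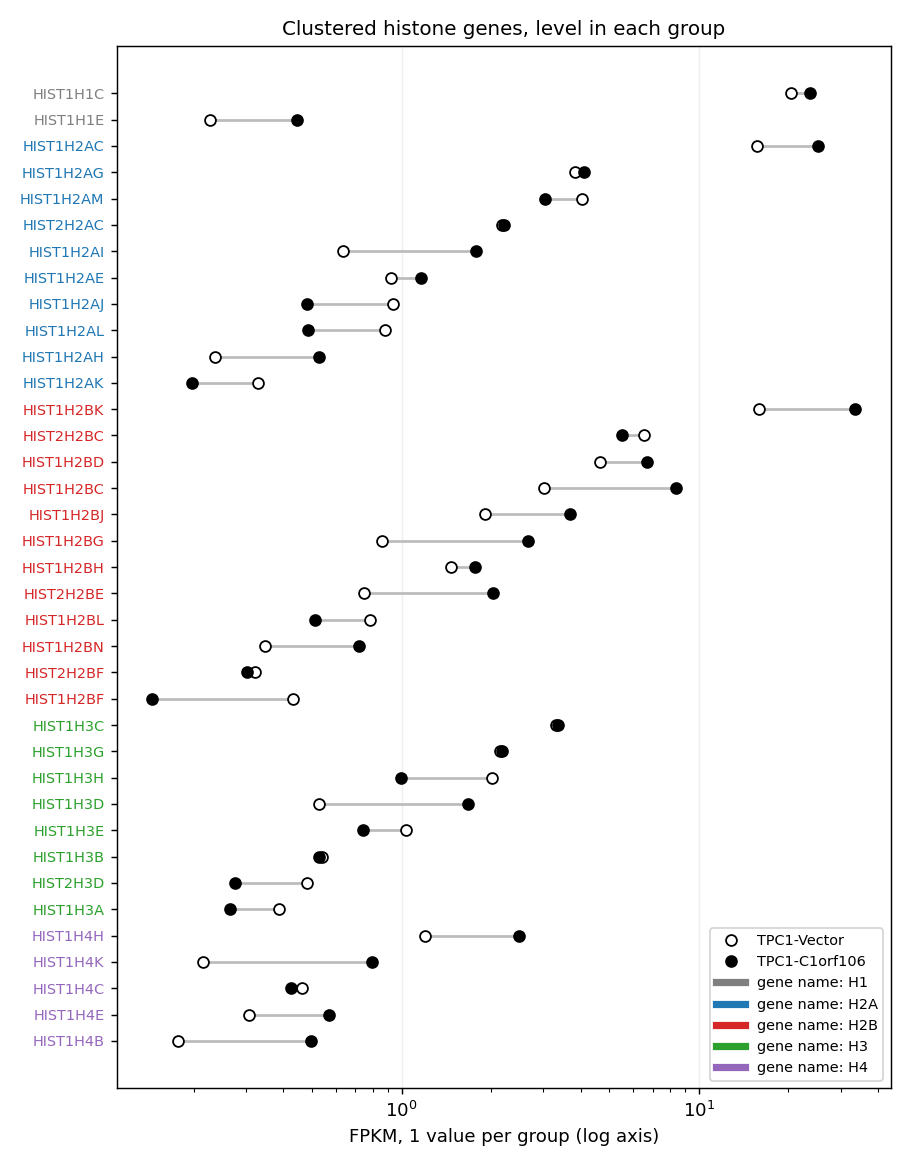
FPKM (log axis) of the 37 clustered histone genes in TPC1-Vector (open circles) and TPC1-C1orf106 (filled circles), 1 value per group with no error, ordered by histone type and then by mean level, with gene names coloured by type. Levels run from 0.145 to 33.6 FPKM, and the widest gaps among genes that reached 1 FPKM in either group are those of HIST1H2BC, HIST1H2BG, HIST1H2AI, HIST1H3D and HIST2H2BE.

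Many H2A and H2B genes stand head to head, transcribed in opposite directions from a shared intergenic region. By their deposited positions and GENCODE strands, 8 such pairs were listed, 223 to 322 bases apart, and 7 of them joined an H2A to an H2B gene. In 6 of these 7 the H2B gene had the larger log2 ratio, taken with 0.5 FPKM added. HIST2H2BE was at 1.02 beside 0.018 for HIST2H2AC. HIST1H2BG was at 1.22 beside 0.23 for HIST1H2AE, and HIST1H2BJ at 0.80 beside 0.088 for HIST1H2AG. HIST1H2BC and HIST1H2AC were both past the 1.5-fold line, at 1.34 and 0.66. HIST1H2BK was at 1.05 and HIST1H2AH at 0.48. Without the added 0.5 FPKM this order was reversed, at ratios of 2.11 for HIST1H2BK and 2.24 for HIST1H2AH. HIST1H2BN was at 0.52 and HIST1H2AK at -0.25. The exception was HIST1H2BL, at -0.34 beside 1.004 for HIST1H2AI. The remaining pair joined HIST1H3D, at 1.08, to HIST1H2BF, at -0.53. Of the genes in these pairs, HIST1H2AH, HIST1H2AK and HIST1H2BF did not pass the filter. The partners in a pair thus often differed, although they share most of the sequence between their start sites.

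**Figure D3:**
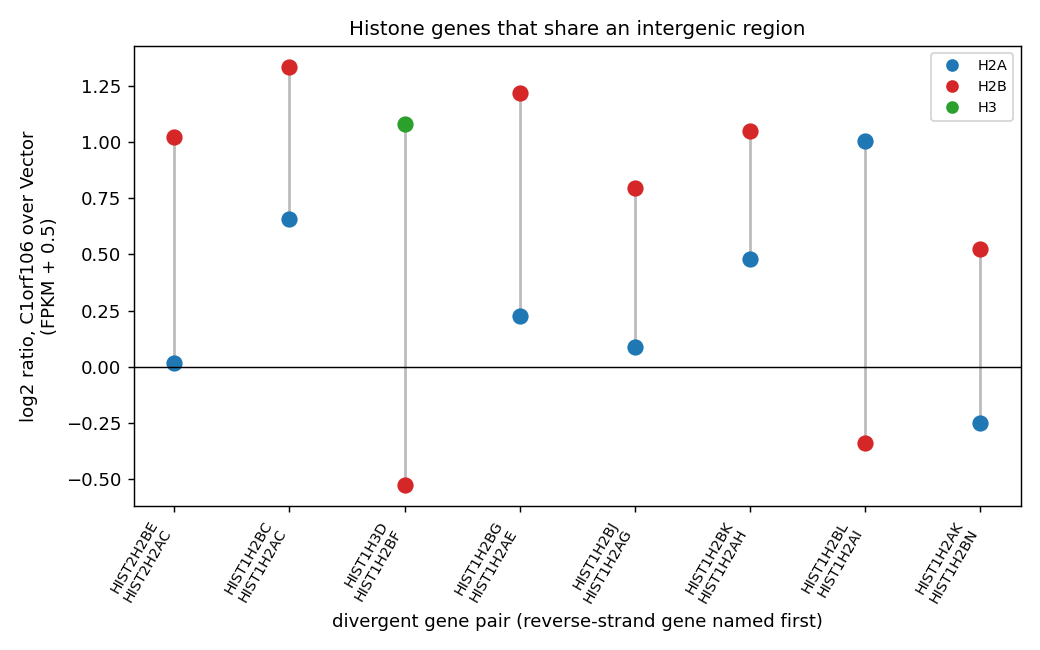
Log2 ratio (TPC1-C1orf106 over TPC1-Vector, 0.5 FPKM added) of both genes in each of the 8 divergent histone gene pairs, each point 1 gene coloured by type and joined to its partner, with the reverse-strand gene named first. The H2B point lies above the H2A point in 6 of 7 pairs, and HIST1H2BL with HIST1H2AI is the pair that goes the other way. HIST1H2AH, HIST1H2AK and HIST1H2BF were at a mean under 0.5 FPKM, and the order of HIST1H2BK and HIST1H2AH rests on the added 0.5 FPKM.

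H3 genes were balanced. Of 8 listed clustered H3 genes, 3 were higher and 5 lower, with sums of 10.4 and 10.0 FPKM. HIST1H3C (3.31 and 3.37 FPKM) and HIST1H3G (2.14 and 2.18 FPKM) were level. HIST1H3D was at 0.527 and 1.67 FPKM, a log2 ratio of 1.08, and its deposited position spans 2510 bases, against 459 for HIST1H3C. HIST1H3H was at 2.01 and 0.999 FPKM, a log2 ratio of -0.74, the 1 clustered gene past the line downwards. HIST1H3E was at 1.04 and 0.742 FPKM. HIST1H3A, HIST1H3B and HIST2H3D were at or under 0.542 FPKM in both groups.

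H4 genes were weak in both groups. Of 5 listed, 4 were higher and 1 lower, and their sums were 2.36 and 4.77 FPKM. HIST1H4H was at 1.20 and 2.48 FPKM, a log2 ratio of 0.81. HIST1H4K was at 0.215 and 0.797 FPKM, and HIST1H4B, HIST1H4C and HIST1H4E were at or under 0.570 FPKM. H1 linker genes were represented by HIST1H1C and HIST1H1E. HIST1H1C was at 20.4 and 23.7 FPKM, a log2 ratio of 0.21, and HIST1H1E at 0.227 and 0.444 FPKM. HIST1H1C had the highest value of the clustered genes in TPC1-Vector, whereas in TPC1-C1orf106 both HIST1H2BK and HIST1H2AC lay above it.

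Along chromosome 6 the HIST1 genes fell into 3 blocks with more than 400000 bases between them. In the first block (26020490 to 26285499) 14 of 19 genes were higher, in the second (27132316 to 27147562) 4 of 4, and in the third (27807479 to 27893185) 3 of 9. The summed level was 57.8 and 82.9 FPKM in the first block, 21.9 and 41.9 FPKM in the second, and 10.2 and 8.99 FPKM in the third. In the third block the H2A genes HIST1H2AJ, HIST1H2AK, HIST1H2AL and HIST1H2AM were all lower, and HIST1H2AI alone of its H2A genes was higher. Interspersed between the first and last HIST1 gene were 16 other listed genes, 8 higher and 8 lower. The 15 that passed the filter had a median log2 ratio of -0.017 and 0 past the 1.5-fold line. Over all genes tested 2.24% were higher and 1.45% lower by that rule, so 0 of 15 is near that share. The 5 HIST2 genes on chromosome 1 (149782689 to 149887411) had 2 higher and 3 lower, and HIST2H2BE was the 1 gene past the line.

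**Figure D4:**
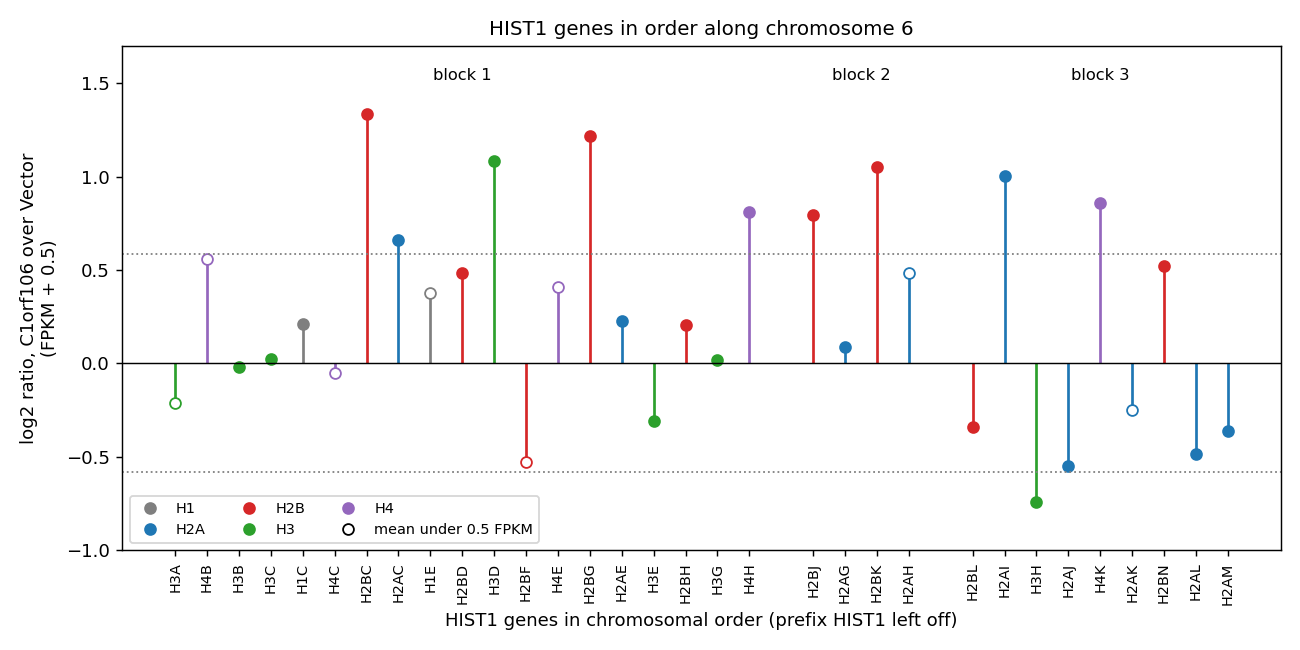
Log2 ratio (TPC1-C1orf106 over TPC1-Vector, 0.5 FPKM added) of the 32 HIST1 genes in their order along chromosome 6, in 3 blocks, coloured by histone type; open circles are genes at a mean under 0.5 FPKM and dotted lines mark 1.5-fold. The second block is higher throughout, and 6 of the 9 genes of the third block lie below 0.

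The annotated length of clustered genes differs between sources, and this split, like those by block, pair and octamer, was chosen after the values had been seen. By their deposited positions, 5 clustered genes span at least 1000 bases (HIST1H2BK, HIST1H2BD, HIST1H3D, HIST2H2BE and HIST2H2BF), and 4 of them were higher, with sums of 22.2 and 44.3 FPKM. In GENCODE release 29, 17 clustered genes span at least 1000 bases, which can include transcripts that read past the stem-loop. Of these 12 were higher and 5 lower, with a median log2 ratio of 0.41. Of the 20 shorter ones 11 were higher and 9 lower, with a median of 0.020. The summed levels differed alike, at 46.6 and 68.1 FPKM for the longer genes (ratio 1.46) and 53.7 and 76.0 FPKM for the shorter (ratio 1.42). Of those that passed the filter, 6 of 14 longer and 4 of 13 shorter genes were at least 1.5-fold higher. HIST1H2BK and HIST1H3D fall on opposite sides of the 2 splits. They span 8566 and 2510 bases by deposited position but 381 and 411 bases in GENCODE. The pseudogene HIST2H2BC is among the longer ones in GENCODE, at 6440 bases. HIST1H2BC and HIST1H2AC were counted in the deposited table over 438 and 546 bases, whereas GENCODE gives them 9054 and 14972 bases. Which transcript form supplied the fragments, and how far capture of polyadenylated RNA shaped these values, was not tested.

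Variant histones made up most of the listed histone FPKM and differed little between the groups. The 11 variant genes summed to 1498 and 1518 FPKM, which was 93.7% and 91.3% of all member FPKM. The methods name an mRNA library kit, and how far capture of polyadenylated RNA shaped this share was not tested. Of them 6 were higher and 5 lower, with a median log2 ratio of 0.043, and 0 passed the 1.5-fold line. Over all genes tested 2.24% were higher and 1.45% lower by that rule, so 0 of 11 is near that share. H2AFZ, the H2A.Z variant found at promoters, was at 593 and 588 FPKM, which ranked 102 and 107 in the table. H2AFX, whose phosphorylated form marks DNA double-strand breaks, was at 184 and 193 FPKM. H2AFY, which encodes macroH2A1, was at 120 and 127 FPKM, and H2AFV, the second H2A.Z gene, at 87.6 and 79.2 FPKM. H2AFJ was at 3.15 and 3.26 FPKM.

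H3.3, the replacement form of H3, was supplied by H3F3B at 160 and 174 FPKM and H3F3A at 19.8 and 21.0 FPKM. The processed pseudogene H3F3AP4 was listed at 287 and 298 FPKM, above either coding gene. Its sequence derives from H3F3A mRNA, so the division of fragments between the entries is uncertain. The 3 entries summed to 467 and 493 FPKM. All 3 entries had log2 ratios between 0.053 and 0.12.

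The largest differences among variants were downward. H2AFY2, which encodes macroH2A2, was at 5.27 and 3.82 FPKM, a log2 ratio of -0.42. It lies on the long arm of chromosome 10, where 65 of 68 tested genes within 5 Mb were also lower, with a median log2 ratio of -0.34. The linker variant H1FX was at 36.2 and 30.1 FPKM, a log2 ratio of -0.26. H1F0, a linker histone of slowly dividing and differentiated cells, was at 1.32 and 0.871 FPKM. Its deposited position (chromosome 22, 37668026 to 38041915) is shared with other genes of the table, as are those of H2AFY and H2AFY2, and the part of those genes in these 3 values was not tested.

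**Figure D5:**
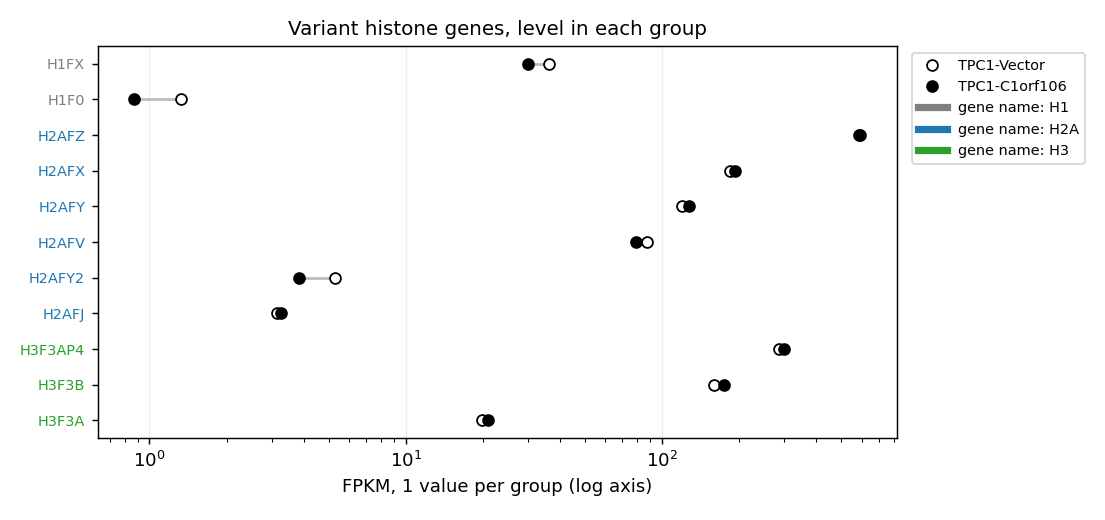
FPKM (log axis) of the 11 variant histone genes in TPC1-Vector (open circles) and TPC1-C1orf106 (filled circles), 1 value per group with no error, ordered by type and then by mean level, with gene names coloured by type. Levels run from 0.871 FPKM for H1F0 to 593 FPKM for H2AFZ, and the circles nearly coincide except for H1F0, H2AFY2 and H1FX.

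Genes that act on histone supply were read from lists of known members. Over all genes tested 2.24% were at least 1.5-fold higher and 1.45% lower, so 0 or 1 gene past the line in lists this short says little. Of 25 genes for processing and decay of stem-loop mRNA, 13 were higher and 12 lower, 0 passed the 1.5-fold line, and the median log2 ratio was 0.0026. SLBP, which binds the stem-loop, was at 67.9 and 68.8 FPKM, and LSM11, of the U7 particle that cuts histone pre-mRNA, at 3.61 and 3.43 FPKM. Of 14 tested regulators of histone transcription, 6 were higher and 8 lower. NPAT, the coactivator of clustered histone genes, was at 6.58 and 5.81 FPKM, and POU2F1 at 4.45 and 3.88 FPKM. CCNE1, a cyclin E that activates NPAT through CDK2, was the 1 gene of this list past the line, at 6.06 and 10.4 FPKM. CCNE2, the other cyclin E gene, was more abundant, at 34.1 and 39.7 FPKM, a log2 ratio of 0.22.

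Histone chaperones and S phase genes were mostly lower by small amounts. Of 30 chaperones 24 were lower and 6 higher, with a median log2 ratio of -0.068 and 0 past the line. The H3-H4 chaperones ASF1B (45.1 and 36.5 FPKM) and DNAJC9 (79.9 and 60.04 FPKM) were lower, and NASP was at 99.8 and 90.7 FPKM. Of 40 S phase genes 31 were lower and 9 higher, with a median of -0.077, and CCNE1, which is in this list too, was the 1 past the line. For both lists the numbers past the line are near the shares over all genes tested, 2.24% higher and 1.45% lower. PCNA was at 146 and 144 FPKM, whereas MCM6 was at 54.5 and 37.0 FPKM. In bulk RNA, fewer cells in S phase and less RNA per cell cannot be told apart.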

How the data were processed

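RNA-seq was performed on 2 libraries each of TPC1-Vector and TPC1-C1orf106 cells. The deposited FPKM values, 1 per gene and group, were made by the authors with CASAVA, Cufflinks 2.1.1 and Cuffdiff on hg38, as listed in the submitters' processing notes. The aligner, annotation and filters are not given in the sources used here, and the methods and labels name different library kits. The columns of the authors' own comparison (log2 ratio, direction, p-value and q-value) were not used. Starts in the table count from 0 and were raised by 1. The deposited positions were compared with GENCODE release 29 (GRCh38), and promoters came from RefSeq (GRCh38.p14).

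Log2 ratios were taken after adding 0.5 FPKM, with a filter on the mean of 0.5 FPKM. No test was possible with 1 value per group, and depth is unknown. Members were picked out by symbol, but this gene family, the lists and the thresholds were chosen with earlier results of these data known. By the naming rule, every member at 1 FPKM or more in either group is given with both values. The arithmetic was checked on simulated data, with large changes planted without noise in well expressed genes. That check does not show how 1.5-fold calls behave among weak genes. Alternatives were pseudocounts of 0.1 and 1, no filter, a mean of 1 FPKM, median-of-ratios scaling, quantile normalization, a 2-fold line and removal of members at shared positions. Python 3.11.15, numpy 2.4.6, pandas 2.3.3 and matplotlib 3.10.9 were used.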

Additional observations from a re-analysis of the deposited data

How the results depend on the processing

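No paired analysis was possible because the table has 1 value per group, and for the same reason leaving out each library was not run. The number of clustered genes at least 1.5-fold higher, 10, ranged from 9 to 11 over the pseudocounts, filters and scalings, and was 6 with a 2-fold line. The number lower, 1, was 3 with a pseudocount of 0.1, which adds HIST1H2AJ and HIST1H2AL, and 0 with a 2-fold line. The stricter line and the smaller pseudocount move these counts by construction. The median log2 ratio of the HIST1 genes, 0.22, was 0.49 at a mean of at least 1 FPKM, with fewer genes tested, and 0.19 to 0.28 otherwise. The median of the HIST2 genes, 0.018, was -0.035 with no filter and -0.011 with quantile normalization. The variant genes gave 0 past the line in every alternative. Of the 10 clustered genes past the line upwards, 9 passed it in every alternative at 1.5-fold that gave a value, and HIST1H4K did not with a pseudocount of 1. HIST1H3G and HIST2H2AC changed direction with quantile normalization. Without counts, the counting error of the weak genes is unknown.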
